A study of Mus musculus with 36 samples.

Results

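Gene expression in the blood of mice exposed to the 25% mixed field was compared with that of sham-irradiated controls. The arrays were chosen by their titles, which gave 6 arrays at 25% and 6 control arrays, 12 of the 36 arrays in the series, and no measured value was used to choose them. All mice were adult males of the C57BL/6J strain, and blood was drawn by cardiac puncture 7 days after exposure into a solution that stabilizes RNA. The 25% group received 3 Gy in total, of which 0.75 Gy came from neutrons and the remainder from x-rays and from the photons that the neutron source also emits. Controls were handled in the same way without irradiation. A group given 3 Gy of x-rays and a group given 0.75 Gy of neutrons without x-rays, called neutron alone here although its source also emits photons and its titles read 100%, served as further comparisons with 6 arrays each. Globin RNA had been depleted before labelling, 1 array was hybridized per mouse, and the RNA of all white cells, platelets, and immature red cells was measured together. The labels give blood as the tissue, and Alas2, S100a8, Cd3e, and Pf4, genes of red cells, neutrophils, T cells, and platelets, were well above background on all 12 arrays. The levels below are log2 intensities relative to the median of each array.

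The 25% and control arrays share no scan session. The 6 arrays at 25% were scanned in session 3 on slides 7 and 8, while 5 controls were scanned in session 1 on slides 1 and 2, and control replicate 3 was scanned in session 4 on slide 10. An effect of the session and an effect of the exposure therefore cannot be told apart. Between 15782 and 21058 probes were well above background on the 25% arrays and between 19492 and 20724 on the control arrays (exact permutation p = 0.532, two-sided). Replicate 5 at 25% stood apart from the other arrays of its group. Of the 952 genes in which 1 array at 25% was an outlier, it was that array in 712, or 74.8%, and control replicate 3 was the outlying array in 361 of the 783 such genes among the controls.

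Transcripts of liver were found in these blood samples. The mean log2 level of 10 liver genes was between 0.62 and 9.46 in the controls (median 4.9) and between 7.37 and 11.64 at 25% (median 8.49), with the highest levels in replicates 4 and 1. The liver genes were higher at 25% than in controls by 4.07 on the log2 scale (exact permutation p = 0.0346, two-sided), although controls 1 and 4 overlapped the 25% arrays. Their median log2 fold change was 3.98, and 0 of the 10 passed the thresholds in limma, against 10 of 10 when the replicate number was fitted as a block. Without control replicate 1, 2 of the 10 passed. Heart muscle genes did not pass the thresholds in any of 6 tested, with a median log2 fold change of 0.54. A fit that held the liver level as a covariate is given below beside many of the lists and genes whose calls changed in it. The named genes that lost or gained a call in it are listed in the closing section.

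**Figure D1:**
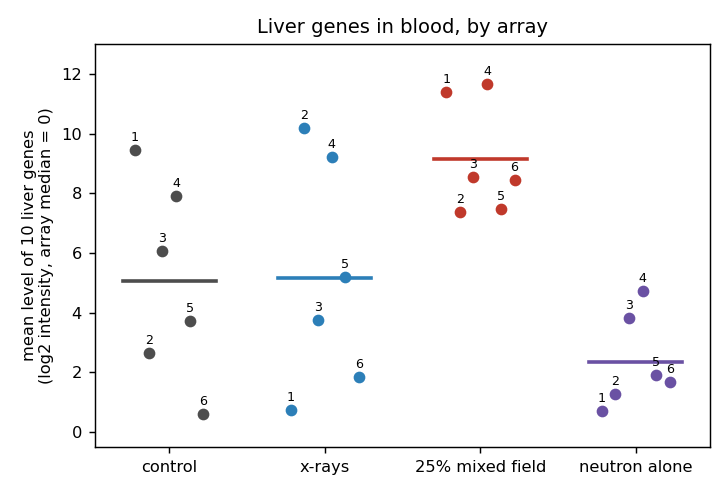
Mean log2 intensity of 10 liver genes in each array of 4 groups, relative to the array median, with the replicate number above each point and the group mean as a line. All 6 arrays at 25% lie at or above 7.37, and 4 of 6 controls lie below that level.

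Ionizing radiation breaks DNA, and neutrons deposit their energy along denser tracks than x-rays do, so that more of the damage is clustered and hard to repair. Among blood cells, B lymphocytes are known to be among the most radiosensitive, while the bone marrow replaces red cells, platelets, and granulocytes in the days that follow an exposure that spares part of the stem cells. Young red cells, called reticulocytes, still contain RNA, and p53 is the transcription factor that turns on cell cycle arrest and death genes after DNA damage.

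A gene was taken as differentially expressed at p below 0.001 in limma with a Benjamini-Hochberg adjusted p below 0.05 over all 15085 genes tested. Of these, 3737 genes (24.8%) differed between the 25% mixed field and the controls. Expression of 1641 genes (10.9%) was higher at 25% and that of 2096 genes (13.9%) was lower. Over all 15085 genes the log2 fold change had a median of -0.12, and it was 0.02 when arrays were scaled on their 75th percentile. In 1839 genes (12.2%) all 6 arrays at 25% lay above all 6 controls, and in 2317 genes (15.4%) all 6 lay below. Counts of gene list members below are to be read against these shares. With background corrected by normexp, run with an offset of 50, 780 genes passed, of which 57 were higher and 723 lower. Thus 92.7% were lower in place of 56.1%. The part of the offset in these counts was not tested. With the liver level as a covariate 2215 genes passed, of which 1410 were higher (9.35%) and 805 were lower (5.34%), and of these 1264 and 803 were also differentially expressed in the same direction without it.

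Promoter sequences are shown first for 2 groups of genes whose members rose. Mt2 and Mt1 encode metallothioneins, which bind zinc and copper and are known to be induced through metal response elements, and both rank among the largest rises. The windows hold the 250 bases before the RefSeq gene start (GRCm38.p6), chr8:94172368-94172617 for Mt2 and chr8:94178839-94179088 for Mt1, both on the plus strand. Capitals mark the letters TGCACNC or TGCGCNC, the core of the metal response element, on either strand.
Mt2: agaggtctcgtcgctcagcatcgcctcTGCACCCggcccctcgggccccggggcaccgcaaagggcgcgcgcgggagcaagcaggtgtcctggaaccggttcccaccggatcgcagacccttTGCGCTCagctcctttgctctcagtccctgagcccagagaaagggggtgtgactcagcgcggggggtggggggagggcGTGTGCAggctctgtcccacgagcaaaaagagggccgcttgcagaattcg
Mt1: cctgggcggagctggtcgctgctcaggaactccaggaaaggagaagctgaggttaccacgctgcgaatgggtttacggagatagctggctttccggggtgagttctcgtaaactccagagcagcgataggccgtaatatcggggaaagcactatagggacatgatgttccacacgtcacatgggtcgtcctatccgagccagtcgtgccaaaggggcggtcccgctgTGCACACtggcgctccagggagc
The core was found at 3 places in the Mt2 window and at 1 in the Mt1 window. It was found in 11 of 25 windows (44%) of the metallothionein and glutathione S-transferase genes and in 21.4% of 32851 windows of all genes.

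Ccnb2 and Ccnb1 encode B-type cyclins, the regulatory subunits of the kinase that starts mitosis, and are shown because 28 of 41 mitosis genes rose. The 250 bases before the start are chr9:70421555-70421804 for Ccnb2 and chr13:100786487-100786736 for Ccnb1 (GRCm38.p6), both on the minus strand. Capitals mark the letters CCAAT, the box bound by NF-Y, on either strand.
Ccnb2: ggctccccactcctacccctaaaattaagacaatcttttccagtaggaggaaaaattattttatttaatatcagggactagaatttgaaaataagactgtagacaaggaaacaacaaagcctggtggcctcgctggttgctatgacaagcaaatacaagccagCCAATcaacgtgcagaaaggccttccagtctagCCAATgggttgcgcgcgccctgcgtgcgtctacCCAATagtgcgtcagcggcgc
Ccnb1: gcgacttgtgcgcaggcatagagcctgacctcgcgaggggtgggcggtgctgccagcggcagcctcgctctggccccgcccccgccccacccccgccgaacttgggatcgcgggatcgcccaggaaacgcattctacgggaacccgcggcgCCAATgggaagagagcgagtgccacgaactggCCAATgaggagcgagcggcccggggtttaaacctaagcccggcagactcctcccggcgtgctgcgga
CCAAT was found at 3 places in the Ccnb2 window and at 2 in the Ccnb1 window. It was found in 29 of 38 windows (76.3%) of 35 mitosis genes with an entry and in 33.8% of the windows of all genes. The letters TTTGAA, part of the cell cycle homology region, were found in 15 of the 38 windows (39.5%) and in 16% of all windows. Windows of genes with several starts overlap in part, and a match is a description of these letters only.

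B-cell genes were the genes with the lowest levels at 25% relative to controls. Of 28 B-cell receptor and identity genes, 27 were downregulated and 0 upregulated, and the median log2 fold change was -4.02, against -0.12 over all genes tested. Fewer B cells and less RNA per B cell cannot be told apart in whole blood, and the same holds for each cell type below. Ms4a1 encodes CD20, a surface protein of B cells, and its probe lies at chr19:11325367-11325426 (mm9). Ms4a1 levels were between 8.55 and 9.15 in the controls (median 8.90) and between 3.96 and 6.33 at 25% (median 4.21). All 6 arrays at 25% lay below all 6 controls, and replicate 6 had the highest level at 25%. The fall was 19-fold, a log2 fold change of -4.25 ± 0.36 (SE, n = 6 per group, adjusted p = 1.46e-06).

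Cd79a, a signalling chain of the B-cell receptor, had a log2 fold change of -4.37 ± 0.35, and its second probe differed by -4.71. The array annotation places the first of these probes on chromosome 12 and RefSeq places the gene on chromosome 7. Pax5, the transcription factor that keeps B-cell identity, had a log2 fold change of -2.18 and was well above background on 1 of the 6 arrays at 25%. The list median relative to the control mean was between -4.58 and -2.89 in the 6 arrays at 25%.

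The 8 largest falls among genes well above background on all 12 arrays belonged mostly to B cells. Chst3, a sulfotransferase that modifies chondroitin, had the largest fall. Chst3 was between 6.23 and 7.35 in controls (median 6.78) and between 0.72 and 1.60 at 25% (median 1.22). The groups were far apart, with a 47.1-fold fall and a log2 fold change of -5.56 ± 0.24 (adjusted p = 1.09e-08). The transcript ENSMUST00000192250, which the array annotation describes as an immunoglobulin delta chain, fell 39.3-fold, with a log2 fold change of -5.30 ± 0.30. Tnfrsf13c, the receptor for the B-cell survival factor BAFF, had a log2 fold change of -4.9 ± 0.26, and its second probe fell by 2.90. Fcrla and Fcmr, the latter an IgM receptor, had log2 fold changes of -4.81 and -4.72. Ly6d, a surface marker of the B lineage, and Cr2, complement receptor 2, had log2 fold changes of -4.40 and -4.37. With the liver level as a covariate 26 of the 28 B-cell genes were downregulated, and the median log2 fold change was -3.79.

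Genes shared by B cells and other antigen-presenting cells were lower as well. All 11 MHC class II presentation genes tested were downregulated, with a median log2 fold change of -2.64 and 9 of 11 downregulated with the liver covariate. H2-Aa, the alpha chain of I-A, was between 8.59 and 9.28 in controls and between 5.94 and 6.73 at 25%, a log2 fold change of -2.65 ± 0.22. H2-Ob and H2-Oa, the chains of the peptide-loading regulator H2-O that is found mainly in B cells, had larger log2 fold changes, of -4.20 and -3.67. Cd74, the invariant chain, had a log2 fold change of -2.64 ± 0.29. Among 7 plasma cell genes, Mzb1 and Irf4 were downregulated, with log2 fold changes of -2.67 and -1.89, and Xbp1 was upregulated, by 1.06. The Xbp1 call was lost with the replicate block, with the liver covariate, and in 7 of 12 fits without 1 array.

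Lymphocyte homing receptors fell in part. Of 19 genes, 9 were downregulated and 0 upregulated, with a median log2 fold change of -0.90. Ccr6 and Cxcr5, chemokine receptors found on B cells, had log2 fold changes of -4.23 ± 0.32 and -3.66 ± 0.32. Cxcr5 is also a member of the B-cell list. Ccr7, which guides naive T and B cells to lymph nodes, was between 8.40 and 9.24 in controls and between 6.25 and 7.45 at 25%, a log2 fold change of -1.98 ± 0.24. S1pr1, the receptor used by lymphocytes to leave lymph nodes, had a log2 fold change of -1.67 and was not differentially expressed with the liver covariate. Klf2, a transcription factor that maintains S1pr1, had a log2 fold change of -1.80. Of the 19 genes, 6 were downregulated with the liver covariate.

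T-cell genes differed less than B-cell genes. Of 28 genes, 8 were downregulated (28.6%), with a median log2 fold change of -0.52. Cd3e, a chain of the T-cell receptor complex, was between 6.92 and 7.85 in controls and between 7.22 and 7.45 at 25%, and the 25% arrays lay within the range of the controls. Its log2 fold change was -0.12 ± 0.20 (adjusted p = 0.65), and that of Cd4 was 0.07 ± 0.23. Cd8a, the coreceptor of cytotoxic T cells, was between 3.13 and 4.26 in controls and between 1.63 and 2.89 at 25%, a log2 fold change of -1.58 ± 0.27, and its second probe differed by -1.57. Cd2, an adhesion molecule of T and NK cells, had a log2 fold change of -1.41. Tcf7, a factor of naive T cells, had a log2 fold change of -0.52 and did not pass, and its second probe differed by -1.35. The count of 8 fell to 2 with the liver covariate and to 4 with the replicate block, and it was 3 without control replicate 2 or 3, 4 without control replicate 5 or 6 or 25% replicate 3, and 5 without 25% replicate 2, 4, 5, or 6. Cd8a did not pass with the liver covariate.

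Natural killer and cytotoxic genes had a median log2 fold change of 0.80, and 3 of 22 were upregulated (13.6%, near the 10.9% of all genes tested). These were Gzmb, a granzyme of killer cells, Il2rb, a chain of the receptor for interleukins 2 and 15, and Tbx21, the transcription factor T-bet, with log2 fold changes of 1.11, 1.02, and 0.97, and the second Il2rb probe differed by 0.47. Gzmb was between 4.09 and 4.94 in controls and between 5.32 and 6.16 at 25%, so that the groups did not overlap. Prf1 and Ncr1 had log2 fold changes of 0.07 and 0.22. With the liver covariate 0 of 22 passed, while the median log2 fold change was 0.91. The count was also 0 without 25% replicate 2 or without 25% replicates 1 and 4 together. The count was 1 with the replicate block and 1 without control replicate 1, 3, 4, 5, or 6 or 25% replicate 1, 4, or 6.

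**Figure D2:**
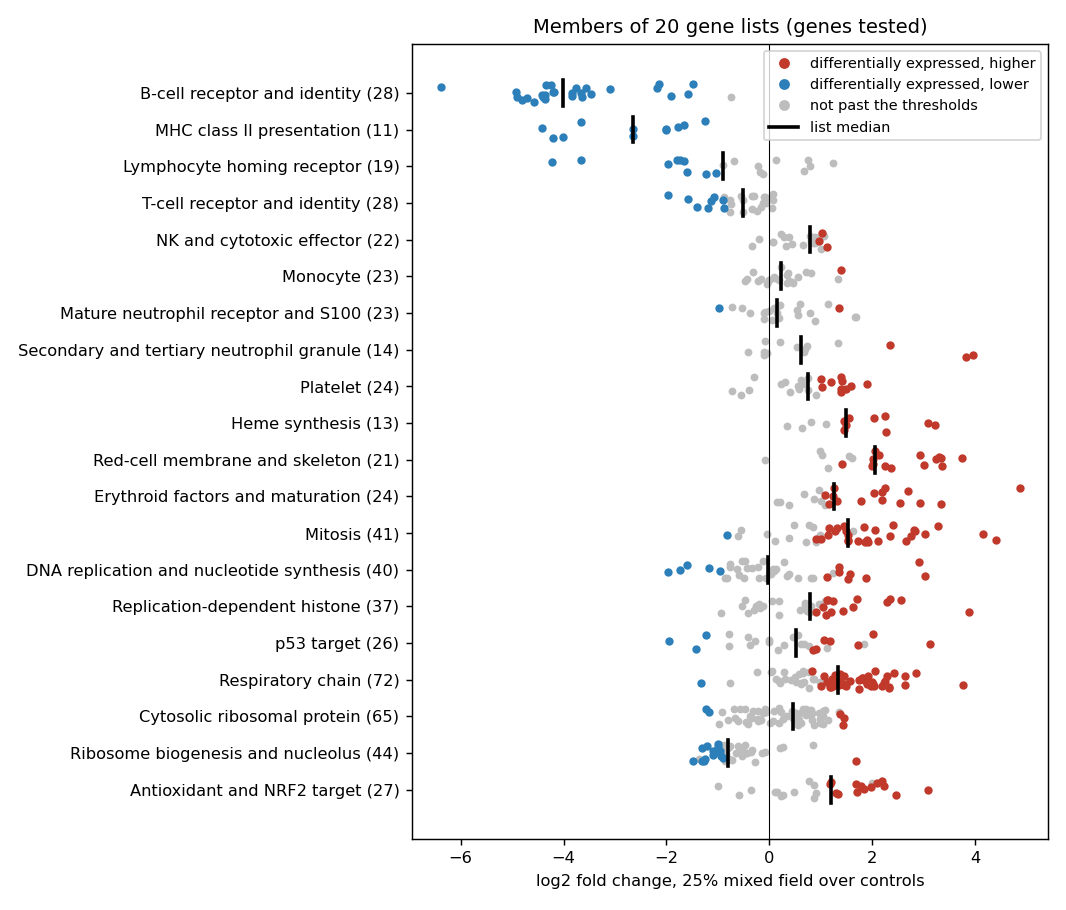
Log2 fold change of each tested member of 20 gene lists at 25% relative to controls, with list medians as black bars and the number of genes tested in parentheses. B-cell genes lie furthest to the left (median -4.02), and red-cell membrane genes have the highest median (2.06).

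Genes of developing red cells were higher at 25%. Of 21 red-cell membrane and skeleton genes, 15 were upregulated and 0 downregulated, with a median log2 fold change of 2.06. Slc4a1 encodes band 3, the anion exchanger of the red-cell membrane, and its probe lies at chr11:102210256-102210315 (mm9). Slc4a1 was between 10.35 and 11.22 in controls (median 10.97) and between 12.09 and 14.20 at 25% (median 12.76). All arrays at 25% were higher than all controls, with a log2 fold change of 2.14 ± 0.32 (adjusted p = 0.000141). Add2, a subunit of adducin that caps actin in the membrane skeleton, had a larger log2 fold change of 3.74 ± 0.33. Tmod1, which caps the other end of actin, Rhd, a blood group protein, and Icam4, an adhesion molecule of red cells, had log2 fold changes of 3.36, 3.33, and 3.29.

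Heme synthesis genes rose in the same direction. Of 13 genes, 9 were upregulated and 0 downregulated, with a median log2 fold change of 1.5. Urod and Cpox catalyse successive steps of the pathway. Urod was between 7.68 and 8.53 in controls and between 10.59 and 12.57 at 25%, a log2 fold change of 3.22 ± 0.30. Cpox had a log2 fold change of 3.09 ± 0.33, and Glrx5, a mitochondrial glutaredoxin, of 2.25. Alas2, the erythroid enzyme of the first step, was between 14.24 and 14.68 in controls and between 14.10 and 15.73 at 25%. These ranges overlapped, and the log2 fold change was 0.35 ± 0.27 (adjusted p = 0.309).

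Of 24 erythroid factors and maturation genes, 15 were upregulated and 0 downregulated, with a median log2 fold change of 1.25. Ahsp, the chaperone of free alpha globin, was between 8.15 and 9.56 in controls and between 13.11 and 14.85 at 25%. It had the fourth largest rise among genes well above background on all arrays, 29.1-fold, with a log2 fold change of 4.86 ± 0.31. Klf1, a transcription factor of the erythroid lineage, was between 0.23 and 0.77 in controls and between 2.42 and 4.14 at 25%, a log2 fold change of 2.54 ± 0.28. Gata1, its partner in the lineage, had a log2 fold change of 1.77 ± 0.25, and Car2, carbonic anhydrase 2, of 2.93. Tfrc, the transferrin receptor, had a log2 fold change of 1.25 ± 0.35 and did not pass in the main test, while it passed with the liver covariate, and its other probes differed by 1.72 and 2.50.

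Globin transcripts that belong to the embryo were higher at 25%, although globin RNA had been depleted, and their levels rest on what the depletion left. Of 8 globin genes 3 were upregulated. Hbb-bh1, an embryonic beta-like globin, was between -0.60 and 0.08 in controls and between 3.47 and 5.51 at 25%, and it was well above background on 4 of 6 controls. Its log2 fold change was 4.66 ± 0.32. Hbb-y, another embryonic beta-like globin, had a log2 fold change of 3.06 ± 0.23, and its second probe one of 3.13. Hba-x, the embryonic alpha-like globin, was well above background on 0 of 6 controls and on 1 of 6 arrays at 25%, which gives at least a 1.33-fold difference. Replicate 5 at 25% had the highest list median in the heme synthesis and red-cell membrane lists (2.74 and 3.27), and the counts without it were the same within 2 genes in both. With the liver covariate 9 of 13 heme genes, 16 of 21 membrane genes, and 13 of 24 erythroid factors were upregulated. With normexp the counts were 0, 1, and 1, and the list medians were 0.74, 1.28, and 0.51.

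Genes of other blood lineages differed less. Of 14 secondary and tertiary neutrophil granule genes, 3 were upregulated, with a median log2 fold change of 0.61. These were Ngp and Ltf, granule proteins made in immature neutrophils, and Camp, the cathelicidin precursor. Camp was between 2.62 and 3.48 in controls and between 4.18 and 6.62 at 25%, a log2 fold change of 2.35 ± 0.42, and its second probe differed by 1.45. Ltf and Ngp had log2 fold changes of 3.83 and 3.96, but each was well above background on 1 of 6 controls. Of 5 primary granule genes tested, Elane, the neutrophil elastase, was upregulated, with a log2 fold change of 1.75 ± 0.30, and Serpinb1a, given below, was downregulated. Of 23 genes of mature neutrophils, Mxd1 was upregulated, with a log2 fold change of 1.35 and a second probe at 0.52, and Csf3r, the G-CSF receptor, was downregulated, with one of -0.97. The Csf3r call was lost with the replicate block, with the liver covariate, and in 9 of 12 fits without 1 array, and its probe is annotated on chromosome 19, while RefSeq places the gene on chromosome 4. S100a8, an abundant neutrophil protein, was between 8.28 and 11.49 in controls and between 9.27 and 10.75 at 25%, a log2 fold change of -0.08 ± 0.43.

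Monocyte genes had a median log2 fold change of 0.23, and 1 of 23 passed. That gene was Ms4a4c, with a log2 fold change of 1.40, whereas its other probes differed by -0.55 and -0.86, and it did not pass with the liver covariate. Csf1r, the monocyte growth factor receptor, had a log2 fold change of 0.23 ± 0.20 with its other probes at -0.19 and -0.33, and Ccr2 of -0.22 ± 0.38. Platelet genes were higher in part, with 10 of 24 upregulated, 0 downregulated, and a median log2 fold change of 0.76. Pf4, a chemokine of platelet granules, was between 11.16 and 12.20 in controls and between 13.16 and 14.26 at 25%, a log2 fold change of 1.59 ± 0.24. Thbs1, thrombospondin 1, and Gp1bb, a chain of the receptor for von Willebrand factor, had log2 fold changes of 1.91 and 1.49, the other Gp1bb probes differing by 1.02 and 0.84, while Itga2b and Gp9 had 0.40 and 0.59 and did not pass. With the liver covariate 12 of 24 platelet genes were upregulated. With normexp 0 of 24 passed, and the list median was 0.03. That median was 0.41 after quantile normalization and 0.38 in the deposited table. Of 14 progenitor genes, Cd34 and Cd93 were upregulated, with log2 fold changes of 1.61 and 1.10, Sox4 was downregulated, with one of -1.71, and the second probes of Cd34 and Sox4 differed by 0.20 and -0.58.

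**Figure D3:**
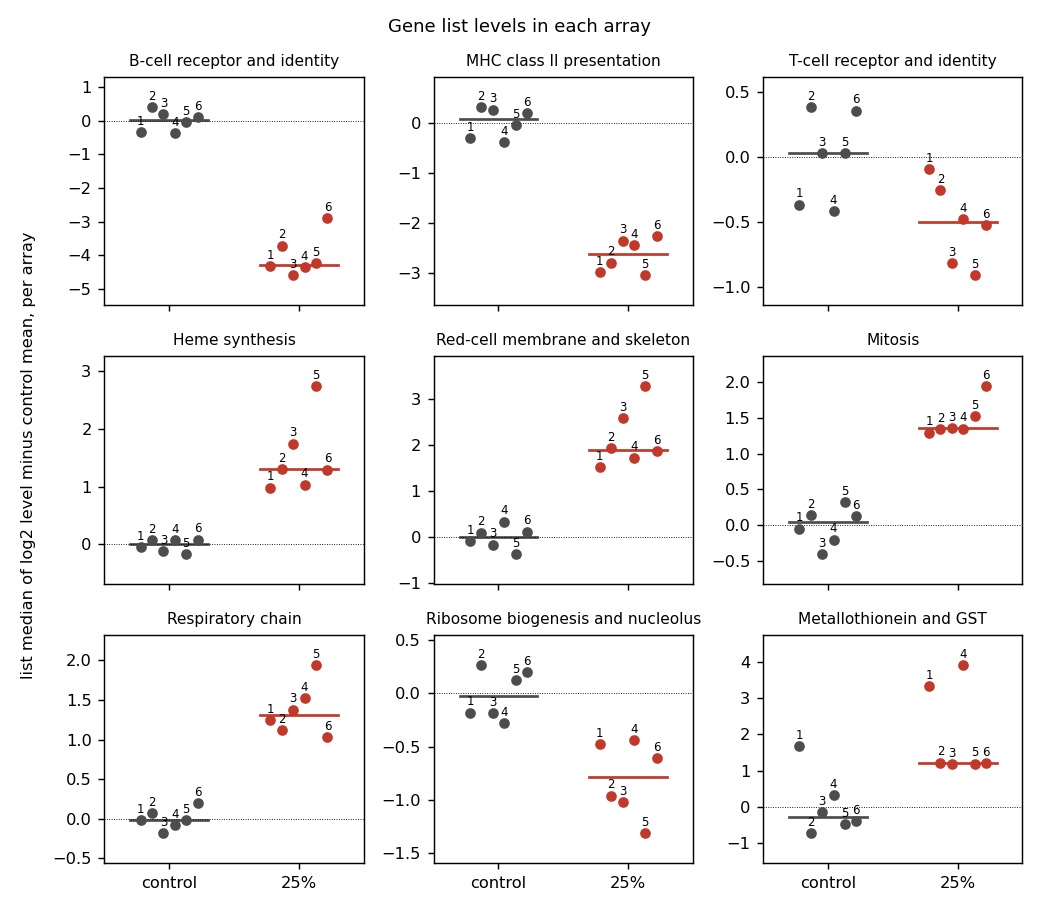
Median log2 level of the members of 9 gene lists in each control and 25% array, relative to the mean of the controls, with replicate numbers above the points and group medians as lines. In the B-cell, MHC class II, heme synthesis, red-cell membrane, mitosis, respiratory chain, and ribosome biogenesis lists the 2 groups do not overlap, and replicates 1 and 4 at 25% are highest in the metallothionein and GST list (3.33 and 3.90).

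Mitosis genes were higher at 25%. Of 41 genes, 28 were upregulated and 1 downregulated, with a median log2 fold change of 1.52, and 24 were upregulated with the liver covariate. The list median rose by 1.29 to 1.94 in the 6 arrays. Mki67, which encodes the proliferation antigen Ki-67, has its probe at chr7:142881591-142881650 (mm9). Mki67 was between 4.22 and 5.01 in controls (median 4.75) and between 8.08 and 9.79 at 25% (median 8.85). The groups were far apart, with a 17.9-fold rise, a log2 fold change of 4.16 ± 0.27 (adjusted p = 1.39e-07), and 4.22 for the second probe. Cdca3, which triggers entry into mitosis, had a log2 fold change of 4.40 ± 0.30. Ccnb2 and Ccnb1, whose promoters are shown above, had log2 fold changes of 3.02 ± 0.30 and 1.91 ± 0.26. Top2a, the topoisomerase of mitotic chromosomes, and Spc24, a kinetochore subunit, had log2 fold changes of 2.34 and 3.29. The gene that was lower was Bub3, chosen for mention after its value was seen, with a log2 fold change of -0.83 and a call that was lost with the replicate block, with the liver covariate, and in 7 of 12 fits without 1 array. With normexp, 4 of the 41 mitosis genes passed.

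DNA replication genes were divided. Of 40 genes, 8 were upregulated and 5 downregulated, with a median log2 fold change of -0.03, and 6 and 3 with the liver covariate. Rrm2, a subunit of ribonucleotide reductase, had a log2 fold change of 3.02 ± 0.25, from a probe annotated on chromosome 19 while RefSeq places the gene on chromosome 12. Mcm2, a subunit of the replicative helicase, was between 2.55 and 3.17 in controls and between 4.46 and 5.49 at 25%, a log2 fold change of 1.89 ± 0.22. Mcm5, another subunit of that helicase, had a log2 fold change of -0.23 ± 0.21 and did not pass. Pold1, the catalytic subunit of DNA polymerase delta, was between 5.33 and 6.34 in controls and between 3.51 and 4.66 at 25%, a log2 fold change of -1.96 ± 0.25. Rfc1, the large subunit of the clamp loader, had a log2 fold change of -1.75. Replication-dependent histones were higher in 14 of 37 genes and lower in 0, with a median log2 fold change of 0.79. Hist2h2bb and Hist1h2ab had log2 fold changes of 2.57 and 2.30, and closely related histone transcripts may bind the same probe.

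Of 26 p53 targets, 7 were upregulated and 3 downregulated, with a median log2 fold change of 0.52, and 6 and 1 with the liver covariate. Cdkn1a encodes the cell cycle inhibitor p21, and its probe lies at chr17:29237377-29237436 (mm9). Cdkn1a was between 0.26 and 1.33 in controls (median 0.68) and between 3.50 and 4.33 at 25% (median 3.92). All 6 arrays at 25% were higher than all controls, with an 8.71-fold rise, a log2 fold change of 3.12 ± 0.22 (adjusted p = 3.90e-07), and 3.69 for the second probe. Mgmt, which repairs alkylated guanine, Mdm2, the ubiquitin ligase that limits p53, Phlda3, an inhibitor of AKT, and Ccng1, cyclin G1, had log2 fold changes of 1.72, 1.19, 1.06, and 0.91. The call of Ccng1 was lost with the replicate block (adjusted p = 0.00922). Trp53i11 and Btg2, an antiproliferative gene, were downregulated, with log2 fold changes of -1.95 and -1.24, and Btg2 did not pass with the liver covariate. Bcl2l1, which encodes the survival protein BCL-XL and is abundant in red-cell precursors, was between 11.27 and 11.97 in controls and between 13.13 and 14.64 at 25%, a log2 fold change of 2.03.

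Double-strand break repair genes had a median log2 fold change of -0.33, and 5 of 30 were downregulated and 2 upregulated, or 3 and 1 with the liver covariate. In both directions 23.3% passed in the main test, near the 24.8% of all genes tested. Atm, the kinase that senses breaks, was between 1.91 and 2.82 in controls and between -0.38 and 1.03 at 25%, a log2 fold change of -1.83 ± 0.26, while its second probe differed by -0.88. Mdc1, which gathers repair factors at breaks, and Fanca had log2 fold changes of -1.47 and -1.44. Fancd2, a partner of Fanca, had a log2 fold change of 2.02 and was well above background on 1 of 6 controls. It did not pass with the liver covariate. Without control replicate 2, 3, 4, 5, or 6 or 25% replicate 2, 3, or 5, 3 genes were downregulated. The count of upregulated genes was 0 without control replicate 1, 5, or 6 or 25% replicate 3 or 6, and 1 without control replicate 2 or 4 or 25% replicate 2 or 5.

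**Figure D4:**
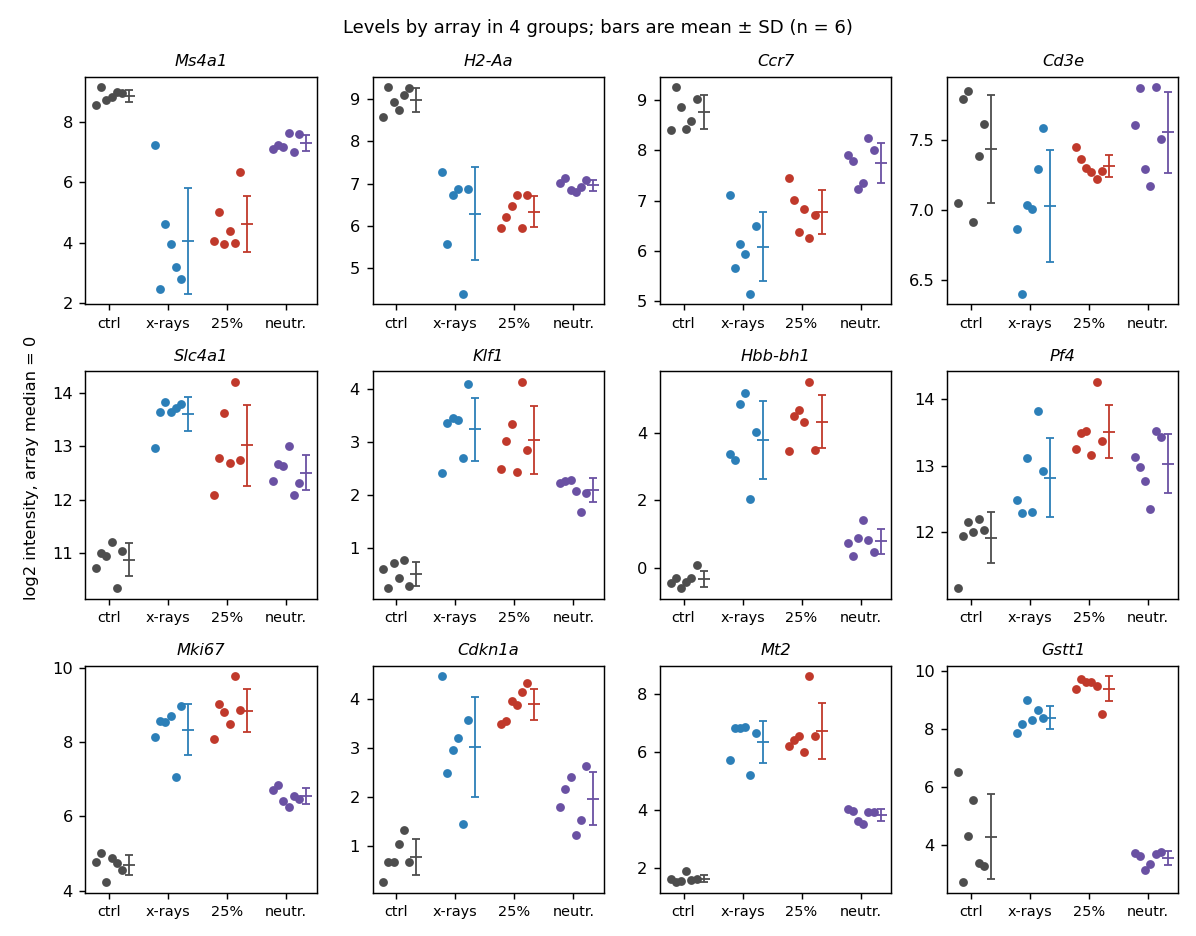
Log2 intensity relative to the array median for 12 genes in the 6 arrays of each of 4 groups, with the mean and SD beside the points. Ms4a1, H2-Aa, and Ccr7 at 25% lie below all controls, Cd3e lies within their range, and the other 8 genes lie above all controls.

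Metallothionein and glutathione S-transferase genes were among the largest rises. The median of the list fell with the liver covariate, while the rises of Mt2 and Mt1 did not. Of 21 genes, 7 were upregulated and 1 downregulated, with a median log2 fold change of 1.92. Mt2, whose promoter is shown above, has its probe at chr8:96697371-96697430 (mm9). Mt2 was between 1.52 and 1.90 in controls (median 1.62) and between 6.02 and 8.63 at 25% (median 6.49). The controls were tightly grouped and all 25% arrays were far above them, with a 34.1-fold rise and a log2 fold change of 5.09 ± 0.36 (adjusted p = 3.70e-07). Mt1 had a log2 fold change of 4.70 ± 0.46, but its second probe differed by -0.27. With the liver covariate the log2 fold changes of Mt2 and Mt1 were 5.33 and 4.79.

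Gstt1, which conjugates glutathione to small electrophiles and is abundant in liver and red cells, was between 2.70 and 6.51 in controls (median 3.84) and between 8.54 and 9.74 at 25% (median 9.56). It had the largest rise of the genes well above background on all 12 arrays, 34.6-fold, with a log2 fold change of 5.11 ± 0.55. Controls were spread widely while 5 of 6 arrays at 25% lay close together, and with the liver covariate the log2 fold change was 3.83. Mgst3, a membrane-bound transferase, had a log2 fold change of 2.87 ± 0.38, and its second probe one of 3.91. Over the list, the median with the liver covariate was 0.48 with 6 genes upregulated, and 18 genes were upregulated with the replicate block. The 25% arrays with the highest list medians, replicates 4 and 1, were also those with the highest liver levels, and the part of liver RNA in the rise of the other list members was not tested beyond the covariate.

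Antioxidant genes rose in 14 of 27 and fell in 0, with a median log2 fold change of 1.20 and 13 upregulated with the liver covariate. With normexp 0 of 27 passed, and the list median was 0.44. Nqo1, a quinone reductase induced through NRF2, was between 2.31 and 2.79 in controls and between 4.88 and 6.72 at 25%, a log2 fold change of 3.08 ± 0.27. Blvrb, biliverdin reductase B, and Prdx3, a mitochondrial peroxidase, had log2 fold changes of 2.47 and 2.23. Cat, catalase, which is abundant in red cells, was between 7.80 and 8.43 in controls and between 9.77 and 11.62 at 25%, a log2 fold change of 2.18 and a second probe at 1.43. Hmox1, heme oxygenase 1, had a log2 fold change of 0.88 ± 0.24 and did not pass. Hamp, the liver hormone hepcidin that blocks iron release, was well above background on 2 of 6 controls and on all 6 arrays at 25%, with levels between 5.52 and 10.32, and its log2 fold change was 7.17 ± 1.31 without and 3.44 with the liver covariate.

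**Figure D5:**
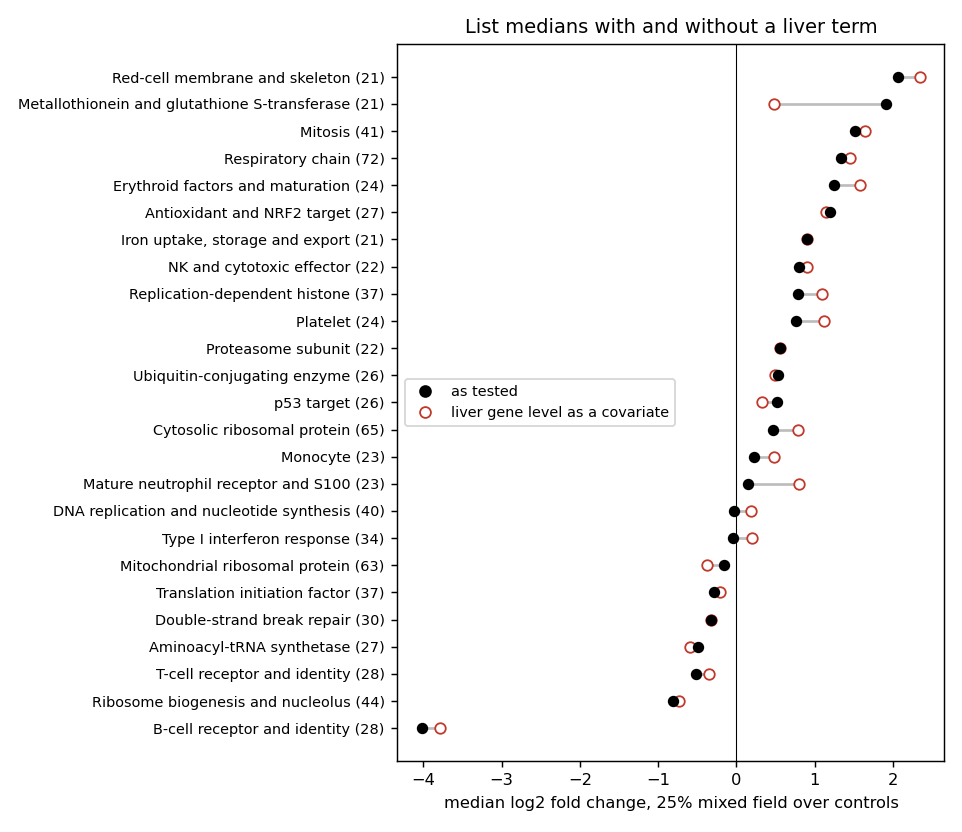
Median log2 fold change of 25 gene lists with 20 or more tested genes, as tested (black) and with the mean level of the liver genes as a covariate (open circles). The metallothionein and glutathione S-transferase median moved from 1.92 to 0.48, and the B-cell median from -4.02 to -3.79.

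Respiratory chain genes, which encode the subunits of the mitochondrial complexes, rose broadly. Of 72 genes, 47 were upregulated and 1 downregulated, with a median log2 fold change of 1.34, and 44 were upregulated with the liver covariate. The list median was higher in every array at 25%, by 1.03 to 1.94. Cox7a2, a subunit of cytochrome c oxidase, was between 7.50 and 7.79 in controls and between 10.03 and 11.61 at 25%, a log2 fold change of 2.85 ± 0.25. Cox6b2, another subunit, had a log2 fold change of 3.76 ± 0.32. The gene that was lower was Atp5sl, chosen for mention after its value was seen, with a log2 fold change of -1.34 and a call that was lost with the liver covariate and in 9 of 12 fits without 1 array. With normexp, 1 of the 72 passed in the upward direction and the list median was 0.60. Mitochondrial ribosomal protein genes had a median log2 fold change of -0.15, and 6 of 63 were upregulated and 1 downregulated. Mrps21 and Mrpl32 were among the upregulated genes, with log2 fold changes of 2.32 and 1.96. The list median relative to the control mean was 0.37 and 0.71 in 25% replicates 1 and 4, which had the highest liver levels, and between -0.81 and -0.29 in the other 4 arrays. Without those replicates 5 genes were upregulated and 7 downregulated, and the median log2 fold change was -0.58.

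Cytosolic ribosomal protein genes rose in 3 of 65 and fell in 2, and with the liver covariate 9 rose and 0 fell. Their median log2 fold change was 0.46, but -0.22 after quantile normalization and -0.95 in the expression table that the authors deposited, so that its sign depended on the scaling. Rpl10, Rpl21, and Rplp1 were higher, with log2 fold changes of 1.37, 1.43, and 1.45, and Rpl18 and Rps18 were lower, with log2 fold changes of -1.23 and -1.16, Rps18 being chosen for mention after its value was seen. Rplp1 had a log2 fold change of -0.55 in the deposited table, and ribosomal protein genes have many near-identical copies, so that these probes may not be specific. The probes of all 5 of these genes are annotated on a chromosome other than the one RefSeq gives for the gene. Other probes differed by 0.42 and 1.46 for Rpl10, by 0.24 to 2.21 for Rpl21, by 0.19 for Rplp1, and by -0.65 for Rps18. The list median was 1.43 in 25% replicate 5 and between 0.11 and 0.38 in the other 5 arrays, relative to the control mean. Without 25% replicate 5 the median log2 fold change was 0.25 and the counts were 7 higher and 5 lower, and without 25% replicate 1, 5 were higher. Ribosome biogenesis genes, which build ribosomes in the nucleolus, had a median log2 fold change of -0.81, with 14 of 44 downregulated and 1 upregulated. Tcof1, a nucleolar factor of ribosomal RNA synthesis, was between 5.47 and 6.49 in controls and between 3.89 and 5.09 at 25%, a log2 fold change of -1.48 ± 0.24. Noc2l, another nucleolar protein, had a log2 fold change of -1.24. Ubtf, which drives ribosomal RNA synthesis, had a log2 fold change of 1.68 from the probe tested, and its second probe had one of -1.39. Noc2l and Ubtf did not pass with the liver covariate. The count of 14 was 1 with the liver covariate, where the median log2 fold change was -0.74, and 7 with the replicate block. It was 6 without control replicate 2 or 6 or 25% replicate 2, and 7 without control replicate 5 or 25% replicate 3. It was 16 without 25% replicate 4 and 17 without 25% replicates 1 and 4.

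Genes of the integrated stress response, in which kinases phosphorylate the initiation factor eIF2, were upregulated in 5 of 14 and downregulated in 3, or in 5 and 2 with the liver covariate. Mthfd2 and Asns, targets of ATF4 in one-carbon and asparagine metabolism, had log2 fold changes of 3.66 ± 0.33 and 3.65 ± 0.43, and Atf5 one of 3.36. Asns was between 2.39 and 4.03 in controls and between 5.86 and 8.49 at 25%, with no overlap. Among the eIF2 kinases, Eif2ak1, the heme-regulated kinase of red-cell precursors, was higher by 2.51 ± 0.27, while Eif2ak3 and Eif2ak4 were lower, with log2 fold changes of -1.57 and -1.79. The kinase levels thus did not move in one direction, and the log2 fold changes of all 3 kept their calls with the liver covariate.

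Of 34 type I interferon genes, 5 were upregulated and 4 downregulated, with a median log2 fold change of -0.04, and with the liver covariate 5 and 1. The share that passed in the main test was 26.5%, near the 24.8% of all genes tested. Oas3, Rsad2, and Isg15, antiviral effectors, had log2 fold changes of 2.33, 1.74, and 1.68, and Isg15 was between 10.76 and 11.56 in controls and between 11.84 and 13.95 at 25%. Irf7, the transcription factor that amplifies the response, was lower, with a log2 fold change of -0.89. Its call was lost with the replicate block, with the liver covariate, and in 8 of 12 fits without 1 array. Ifit1 had a log2 fold change of -0.25 ± 0.22. Of the 4 lower genes, 1 or 2 passed without any single control other than replicate 1, or without 25% replicate 1, 2, 3, or 6. The MHC class I pathway was divided, with log2 fold changes of -1.59 and -1.36 for Tap1 and Tap2, the peptide transporter, and of 1.07 for B2m, the light chain, whose call was lost with the replicate block. Of 12 genes of that pathway 4 were downregulated, but 2 with the liver covariate and 2 with the block. Proteasome subunits rose in 6 of 22 and fell in 0, with Psmd8 at a log2 fold change of 1.61. Ubiquitin-conjugating enzymes rose in 9 of 26 and fell in 4, or in 9 and 0 with the liver covariate, and Ube2c, which serves the anaphase-promoting complex, had a log2 fold change of 1.89 ± 0.31. Apol10a, an apolipoprotein L family gene of no list, had the third largest rise, with a log2 fold change of 4.88 ± 0.29.

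The remaining lists were smaller or had few members past the thresholds. Of 9 dendritic cell genes, Tcf4 and Ccr9 were downregulated, with log2 fold changes of -1.69 and -1.04, the latter not past the thresholds with the liver covariate, and of 5 primary granule genes Serpinb1a was downregulated, with one of -1.88. Of 7 eosinophil genes, Prg2, a granule protein, was upregulated by 2.52, but not with the liver covariate, while Il5ra, the interleukin 5 receptor, had a log2 fold change of -2.43. Of 8 basophil and mast cell genes, Prss34, a basophil protease, was upregulated, with a log2 fold change of 2.08. Of 11 genes of sphingosine-1-phosphate signalling, 2 were upregulated and 4 downregulated (54.5% in all), or 1 and 3 with the liver covariate. Among them Sphk1, the kinase that makes the lipid, had a log2 fold change of 2.30, and S1pr4, one of its receptors, of -1.86. Of 14 Toll-like receptor pathway genes, Tlr1 and Unc93b1 were downregulated, with log2 fold changes of -2.00 and -1.40, and Tlr7, a sensor of single-stranded RNA, was upregulated, by 1.84. Its second probe differed by -0.31, and it did not pass with the liver covariate or without control replicate 3. Translation initiation factors were upregulated in 4 of 37 and downregulated in 6 (27% in all, near the 24.8% of all genes tested), with a median log2 fold change of -0.28. The 6 were 3 with the liver covariate, 4 with the replicate block, and 11 without 25% replicates 1 and 4. Aminoacyl-tRNA synthetases were upregulated in 3 of 27 and downregulated in 2, with a median of -0.49, or in 2 and 1 with the covariate and in 1 and 7 without those replicates. Without 1 array, between 1 and 3 synthetases were upregulated, and 2 initiation factors were upregulated without control replicate 1, 4, or 5.

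The comparisons with x-rays and with neutron alone use the same 6 arrays at 25%, so that the 3 comparisons are not independent. Between 25% and x-rays, which share no scan session either, 394 genes (2.61%) were differentially expressed, 113 higher (0.749%) and 281 lower (1.86%) at 25%. The count was 0 with the liver covariate, with 2756 genes at an unadjusted p below 0.05, 0 with normexp, and 0 without 25% replicates 1 and 4, as well as without 25% replicate 1, 2, 4, or 6 or x-ray replicate 2 or 3 alone. It was 66 without x-ray replicate 5 and 753 without 25% replicate 5. At most 2 members of any gene list passed. Cr2 was between 1.72 and 3.00 at 25% and between 3.29 and 5.51 after x-rays, a log2 difference of -1.92 ± 0.36 (adjusted p = 0.028), and was not different with the liver covariate at the threshold used. The largest differences above x-rays were Gm9924, Dcaf12l2, and Golt1a, with log2 differences of 3.55, 3.14, and 2.90. In each of these 25% replicate 3 lay well below the other 5 arrays, with levels of 8.04, 3.72, and 2.25. Relative to controls Dcaf12l2 differed by 3.27, but by 0.41 in its second probe. The log2 difference of Mki67 was 0.52 (95% CI -0.25 to 1.28), and that of Ms4a1 was 0.58 (95% CI -0.93 to 2.08).

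Between 25% and neutron alone, which had the same neutron dose, 1717 genes (11.4%) were differentially expressed, 1110 higher (7.36%) and 607 lower (4.02%) at 25%. Without 25% replicate 5 the split turned, with 1165 higher and 1547 lower, and it was 1266 and 1386 with array weights. The largest differences above neutron alone included genes expressed in liver. Mup2, a major urinary protein made in liver, and Apoc1, a plasma apolipoprotein, had log2 differences of 7.27 ± 1.08 and 7.01 ± 0.80, which were -1.14 and 0.90 with the liver covariate. The liver level was higher at 25% by 6.80 on the log2 scale (exact permutation p = 0.00216, two-sided, the smallest that 6 against 6 can give), and all 10 liver genes passed. With the covariate 69 genes passed, of which 57 were higher (0.378%) and 12 lower (0.0795%).

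B-cell genes were lower at 25% than after neutron alone in 24 of 28, with a median log2 difference of -2.59. With normexp 0 genes of any kind passed as lower at 25%, and 183 passed as higher. With the liver covariate 4 of the 28 were lower, with a median of -2.01. Chst3 was between 4.76 and 5.46 after neutron alone, a log2 difference of -3.91 ± 0.21 at 25%. Vpreb3, a member of the B-cell list, was between 7.03 and 7.91, a log2 difference of -3.72 ± 0.23. Both passed with the liver covariate, with log2 differences of -3.47 and -3.68. Mki67, Cdca3, and Mt2 were higher at 25% by 2.31, 2.83, and 2.89, and all 3 passed with the covariate. Of 41 mitosis genes, 6 were higher at 25%, with a median log2 difference of 0.72, and 2 with the covariate, with a median of 1.47. Respiratory chain genes were higher in 40 of 72, with a median log2 difference of 1.07. With the covariate 0 of 72 passed, while the median was 1.23. Liver levels reached 4.72 after neutron alone and began at 7.37 at 25%, so that the covariate and the group can be separated only in part. Gstt1 was between 3.13 and 3.74 after neutron alone, within the range of the controls, and was higher at 25% by 5.86 ± 0.23 (6.16 with the covariate). Slc4a1 and Klf1 did not pass, with log2 differences of 0.51 ± 0.32 and 0.95 ± 0.28.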

How the data were processed

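Blood RNA was hybridized to Agilent 4x44K mouse arrays with 1 colour. Scanner intensities were deposited per spot on a linear scale, which Feature Extraction 12.0.2 had background-corrected per the labels and file headers without normalization between arrays. The authors also deposited a normalized expression table of log2 values, which was used as an alternative.

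Spots of the same probe were averaged after taking log2 of the intensities, and the median of every array was then set to 0. A probe was kept if it was uniform and exceeded background on over 75% of 36 arrays, with 1.5-fold variation in at least 20%. The brightest probe represented a gene, leaving 15085 genes, of which 11336 were matched to RefSeq by accession. Probe positions are those of the array annotation (mm9). Array number limits the precision.

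Groups were compared with limma 3.58.1 (R 4.3.3) on the 12 arrays of a comparison. Exact permutation tests were used for a single measure per array. On data simulated for 25% against controls, 17, 36, 42, and 48 of 50 genes changed by 1, 1.5, 2, and 3 on the log2 scale were found among 15085 genes, with 9 false calls. The simulated noise was independent between genes. It held no liver level or outlying array shared across genes and no session shift, so that the false calls do not give the error rate of the real comparison. Alternatives were other scalings, normexp with an offset of 50, filters, probe averaging, and the deposited table. Further alternatives were 1 model over all arrays, blocks for replicate number and slide, array weights, the adjusted p alone, and each array left out. The liver covariate and the fits without 25% replicates 1 and 4 and without the control of session 4 were chosen after seeing the data. For a probe well above background on no array of a group, the bound given is against the lowest signal well above background on each array.

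Deviations from the group means correlated in all 6 same-number pairs of 25% and control arrays (r between 0.12 and 0.43). The labels do not say what a number marks, and with the liver level regressed out 2 of the 6 pairs had r over 0.1.

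Named genes are the 8 largest rises and falls among differentially expressed genes well above background on all 12 arrays, a list of marker genes, up to 4 differentially expressed members of each gene list, and the 6 largest differences in each direction from x-rays and from neutron alone. Of the marker genes, Ighm had no probe of that name, Mpo and Eda2r were below background, and Pcna, Bax, Rpl27, and Eif3f varied too little to be tested. Members, lists, and named genes were chosen with earlier results of these data known. Blood counts and the other mixed fields were not analysed here, and some genes that the rule names are not reported here.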

Additional observations from a re-analysis of the deposited data

Results flagged for a closer look

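Among the genes named in the report, the highest or lowest array of a group stood far from the other 5 in 26 of 300 groups of 6 arrays, a rate to be compared with the 1 in 20 that chance flags. Levels are log2 intensities relative to the array median.

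Replicate 5 was the outlying array in most of the flagged groups at 25%, and in each case it was the highest. Its level was 10.93 for Atf5, 14.64 for Bcl2l1, 13.10 for Blvrb, and 11.62 for Cat, where the other arrays at 25% reached 9.62, 13.57, 11.86, and 10.45. It was 7.77 for Cdca3, 11.61 for Cox7a2, 7.89 for Cpox, and 7.42 for Eif2ak1, against highest values of 6.46, 10.51, 6.51, and 6.28 in the other arrays. It was 2.32 for Fancd2, 8.22 for Mdm2, 8.63 for Mt2, 14.26 for Pf4, and 12.77 for Ube2c. All of these genes but Fancd2 passed the thresholds without that array as well, where Fancd2 had a log2 fold change of 1.76. Replicate 5 also had the fewest probes well above background at 25% (15782), and the part of that in its levels was not tested.

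Other arrays at 25% stood apart in single genes. Gstt1 was lowest in replicate 6 (8.54), Mcm5 was highest in replicate 6 (4.72), and Sox4 was highest in replicate 3 (1.05).

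Among the controls, replicate 3, the array scanned in session 4, was highest for Cox6b2 (7.05), Dcaf12l2 (3.21), and Gm9924 (9.49) and lowest for Tlr7 (5.04). Control replicate 4 was lowest for Cd4 (6.26) and highest for Mt2 (1.90) and Rsad2 (11.57). Control replicate 1, which had the highest liver level of the controls, was lowest for Pf4 (11.16) and Prss34 (-0.81) and highest for Prg2 (2.08).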

How the results depend on the processing

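For 25% against controls, 3737 genes passed. The count was 780 with normexp background correction, 7093 with the adjusted p alone, and 2215 with the liver covariate, and it was within 1.5 times the main count under the other alternatives run. It was between 3002 (without control replicate 2) and 3679 (without 25% replicate 5) when 1 array was left out. With the replicate block 3603 genes passed, 1979 higher and 1624 lower. The block ended the calls of B2m, Bub3, Ccng1, Csf3r, Il2rb, Irf7, Tbx21, and Xbp1, gave calls to Apoc1, Mup2, and the 10 liver genes, and changed no other call among the named genes. Without 1 array, 10 of 150 named genes lost their call in at least 1 fit (Atp5sl, Bub3, Csf3r, Fancd2, Gzmb, Il2rb, Irf7, Tbx21, Tlr7, and Xbp1), and Hmox1 gained one. Hmox1 passed without control replicate 4 (1.04), Gzmb did not pass without 25% replicate 2 (1.03), and Tlr7 did not without control replicate 3 (1.73). The log2 fold change of Ms4a4c was -0.0034 with the probes averaged and that of Rplp1 was -0.55 in the deposited table, the only reversals of a call among named genes. With normexp 80 named genes lost their call. With the liver covariate 21 named genes lost their call (Atp5sl, Btg2, Bub3, Ccr9, Cd8a, Csf3r, Fancd2, Gm9924, Gzmb, Il2rb, Irf7, Ms4a4c, Noc2l, Prg2, Rpl18, Rps18, S1pr1, Tbx21, Tlr7, Ubtf, and Xbp1) and Tfrc gained one. The cause was not tested.

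For 25% against x-rays, 394 genes passed. The count was 0 with normexp, the liver covariate, or without 25% replicates 1 and 4, and 195 without the background filter. It was 1156 in 1 model over all arrays, 1314 with the replicate block, 1712 with array weights, 781 with the adjusted p alone, and 604 with the slide as a random block, and between 0 and 753 when 1 array was left out. For 25% against neutron alone, 1717 genes passed. The count was 183 with normexp, all of them higher at 25%. It was 2652 with array weights, 3942 with the adjusted p alone, 327 with the slide as a block, 69 with the liver covariate, and 1421 with the replicate block. It was between 1327 (without neutron alone replicate 3) and 2712 (without 25% replicate 5) when 1 array was left out. Against x-rays 4 of 6 same-number pairs had r over 0.1, with a mean r of 0.21 against -0.04 for the 30 other pairs. With the liver level regressed out these means were 0.23 and -0.04. Against neutron alone 1 of 6 same-number pairs had r over 0.1, and the means were 0.035 and -0.006. A block for the scan session could not be fitted, because the 25% arrays share no session with controls or x-rays and neutron alone lies in the same session. Signal over background limits the list, since probes that failed the background filter were not tested.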
